A study of Homo sapiens with 8 samples.

Results

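CAOV-3 is an established human ovarian cancer cell line, and the data described here are its 2 arrays, of 8 in the series. One array held total RNA from untreated CAOV-3 cells and the other held RNA from CAOV-3 cells given pI:pC in the culture medium. The arrays were taken by their cell line label. The same untreated and treated pair was measured in OVCAR-3, DOV-13 and SKOV-3, also ovarian cancer lines. These 3 pairs serve as the reference for spread, which includes any response of those lines to pI:pC. All lines were grown in a mixture of MCDB 105 and M199 media with fetal bovine serum. Various concentrations of pI:pC were used according to the labels, and the dose and duration behind each array are not stated, nor whether its RNA came from 1 culture or several pooled. With 1 array per condition there is no measure of error within CAOV-3, so a difference between its arrays has no test. In bulk RNA, a change in the level per cell cannot be told apart from a change in the share of cells that express the gene.

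pI:pC, in full polyriboinosinic:polyribocytidylic acid, is an artificial RNA duplex. Cells recognise it through TLR3 in endosomes and through the RIG-I-like receptors RIGI and IFIH1 in the cytosol. Both routes lead to the transcription factors IRF3 and NF-kB. IRF3 switches on type I and III interferon genes, whose products signal through JAK kinases and STAT proteins to the interferon-stimulated genes (ISGs), while NF-kB switches on cytokines, chemokines and its own inhibitors.

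In CAOV-3 the chemokine genes CXCL11, CXCL10 and CXCL8 stood farthest above the untreated array, followed by ISGs, IL6 and genes of epithelial defence and matrix. Values are log2 expression levels, a difference is treated minus untreated, and a difference of 1 is a 2-fold change. A gene was counted as higher when its difference was at least 1 and its treated value reached the median gene of that array. It was counted as lower at a difference of -1 or less from an untreated value at or above the median gene. Of 11963 genes, 101 (0.844%) were counted higher in CAOV-3 and 16 (0.134%) lower. The same rule counted 26 genes higher and 0 lower for OVCAR-3, 2 and 1 for DOV-13, and 1 and 1 for SKOV-3. Differences also spread more widely in CAOV-3 over all genes (SD 0.287) than in OVCAR-3 (0.204), DOV-13 (0.159) or SKOV-3 (0.175), and this held for the central part of the distribution, with a scaled median absolute deviation of 0.178 against 0.132 to 0.149. The array medians of CAOV-3 were 6.24 untreated and 6.25 treated.

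**Figure D1:**
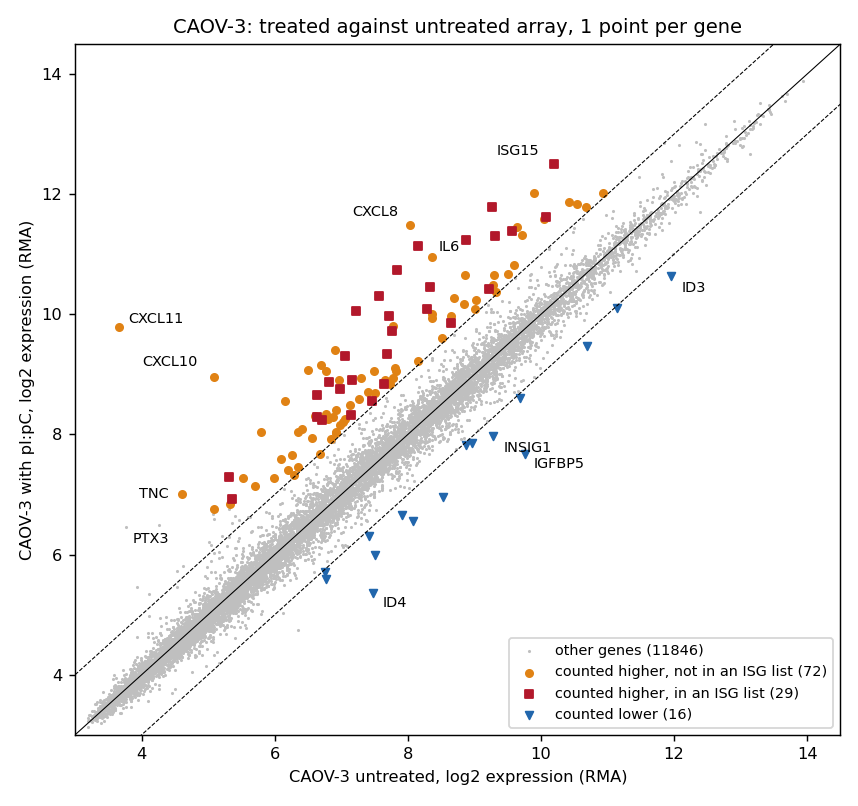
Log2 expression (RMA) of 11963 genes on the untreated CAOV-3 array (horizontal axis) and the treated one (vertical axis), 1 point per gene. The solid line marks equal values and the dashed lines a difference of 1 either way; orange points and red squares are the 101 genes counted higher (29 of them in a list of interferon-stimulated genes), and blue triangles the 16 counted lower. CXCL11 and CXCL10 lie farthest above the line.

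Epithelial markers of the line were bright, and some ovarian carcinoma markers were not. EPCAM, an epithelial adhesion molecule, was at 12.58 untreated and 12.55 treated, the keratin KRT18 at 12.59 and 12.50, and PAX8, a transcription factor of Müllerian epithelium, at 8.11 and 8.06. MUC16 (CA125) and WT1 lay below the median gene on both arrays, at 4.80 and 4.89 untreated, and were among 5 of 19 ovarian carcinoma and epithelial markers that did. Of 16 leukocyte markers, 15 were below the median gene on both arrays, PTPRC (CD45) among them at 4.29 and 4.20, and so were all 9 endothelial markers. CD14 was the exception, at 7.06 untreated and 6.15 treated. The 10 reference genes had a median difference of -0.03 and the 14 measured ribosomal protein genes -0.05, beside -0.02 for all genes.

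The promoters of 5 genes are shown because they differ in which known binding motif lies near the start of genes that were higher together. The sequences are from RefSeq on GRCh38.p14, run 5′ to 3′ on the gene's strand, and cover 250 bases before to 50 bases after the annotated start. Capitals mark matches, on either strand, to GAAANNGAA, the core of the interferon-stimulated response element bound by IRFs and STAT complexes, or to GGANNTTCC, a core of the kappa B site bound by NF-kB. CXCL11 (chr4:76036021-76036320, minus strand) and CXCL8 (chr4:73740319-73740618, plus strand) hold a kappa B match, CXCL10 (chr4:76023448-76023747, minus strand) holds a match to each motif, and IFIT1 (chr10:89392373-89392672, plus strand) and ISG15 (chr1:1013247-1013546, plus strand) hold only response element matches.
CXCL11: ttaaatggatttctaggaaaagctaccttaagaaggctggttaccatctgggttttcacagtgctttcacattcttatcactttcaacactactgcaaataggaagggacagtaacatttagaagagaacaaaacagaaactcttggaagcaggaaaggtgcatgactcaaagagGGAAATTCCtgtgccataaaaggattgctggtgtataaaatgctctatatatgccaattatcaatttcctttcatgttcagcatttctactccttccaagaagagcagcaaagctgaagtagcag
CXCL8: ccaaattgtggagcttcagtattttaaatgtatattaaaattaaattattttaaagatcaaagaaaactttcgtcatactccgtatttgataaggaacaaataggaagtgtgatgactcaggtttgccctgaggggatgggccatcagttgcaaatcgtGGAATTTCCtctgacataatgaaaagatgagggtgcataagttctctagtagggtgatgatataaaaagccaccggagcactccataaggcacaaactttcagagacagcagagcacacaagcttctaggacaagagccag
CXCL10: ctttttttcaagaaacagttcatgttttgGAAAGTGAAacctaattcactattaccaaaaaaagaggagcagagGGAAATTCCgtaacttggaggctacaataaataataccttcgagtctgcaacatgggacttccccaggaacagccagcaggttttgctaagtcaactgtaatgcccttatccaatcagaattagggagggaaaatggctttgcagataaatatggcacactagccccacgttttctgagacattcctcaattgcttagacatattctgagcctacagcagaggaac
IFIT1: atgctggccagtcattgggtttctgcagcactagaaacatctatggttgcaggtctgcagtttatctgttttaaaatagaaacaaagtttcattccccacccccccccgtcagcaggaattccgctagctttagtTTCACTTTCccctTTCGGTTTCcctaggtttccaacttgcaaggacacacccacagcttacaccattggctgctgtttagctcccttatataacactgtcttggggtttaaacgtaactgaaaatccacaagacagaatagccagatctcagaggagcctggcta
ISG15: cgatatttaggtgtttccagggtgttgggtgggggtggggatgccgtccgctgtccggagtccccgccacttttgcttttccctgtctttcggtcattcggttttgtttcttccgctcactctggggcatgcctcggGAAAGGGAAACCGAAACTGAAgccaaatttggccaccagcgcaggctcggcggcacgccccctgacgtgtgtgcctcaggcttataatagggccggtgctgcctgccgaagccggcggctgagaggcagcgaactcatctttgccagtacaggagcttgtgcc

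The table of promoters held 84 of the 101 genes counted higher. The response element core was found in 35 of them (41.7%), against 8.29% of all 27305 promoters of the same length and 6.85% of those of measured genes. The kappa B core was found in 21 (25%), against 4.59% of all promoters. In the ISG lists the split leaned to the response element: of 25 promoters, 17 (68.0%) held it and 2 held a kappa B core. Of the other 59, 18 (30.5%) held the response element core and 19 (32.2%) the kappa B core. Among 14 promoters of genes counted lower, 0 held the response element core and 1, that of HMGCS1, the kappa B core. The 2 motifs overlapped in 0 of the promoters of counted genes. A match is a description of the sequence and not a bound site, and where no match was found these letters are absent from this window only.

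The sensors IFIH1, RIGI and TLR3 and the helicase DDX60 were counted higher in CAOV-3. They were 4 of 19 measured sensors and adaptors, beside 0.844% of all genes, and the median difference was 0.47. IFIH1 (MDA5), a cytosolic sensor of long double-stranded RNA, was at 6.69 untreated and 9.15 treated, a difference of 2.46, with 0.59 from a second, dim probe set. The helicase DDX60 went from 7.78 to 9.80 (2.02), RIGI from 6.61 to 8.31 (1.70) and TLR3 from 6.67 to 7.67 (1.001), the last being the counted gene nearest the threshold. IFIH1 and DDX60 were also higher in OVCAR-3, by 2.47 and 3.13, whereas the differences of TLR3 in OVCAR-3, DOV-13 and SKOV-3 were 0.10, -0.19 and 0.07. EIF2AK2 (PKR), the kinase that halts translation on double-stranded RNA, differed by 0.53, the helicase regulator DHX58 by 0.53 and the RNA editor ADAR by 0.54. The adaptors of the cytosolic and endosomal routes, MAVS and TICAM1, differed by 0.01 and 0.47, and the kinases TBK1 and IKBKE, which act on IRF3, by 0.23 and 0.56.

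No interferon gene was counted higher in CAOV-3. All 14 measured type I and II interferon genes lay below the median gene on both arrays, and their differences ran from -0.21 (IFNA2) to 0.17 (IFNW1). IFNB1, the interferon most cells make first, was at 4.45 untreated and 4.44 treated. Signals this low say little about change, because RMA compresses differences near background. The interferon lambda genes were not analysed here.

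Genes that relay or limit interferon signals lay mostly near 0, with USP18, IRF7 and IRF9 above. USP18, which strips ISG15 from proteins and damps the type I interferon receptor, was at 9.65 untreated and 11.45 treated. It was the only 1 of 18 measured receptor and JAK-STAT genes to be counted higher, beside 0.844% of all genes. IRF9, the DNA-binding part of the ISGF3 complex, went from 9.42 to 10.22 (0.81). The 2 chains of the interferon gamma receptor differed by 0.59 (IFNGR1) and 0.54 (IFNGR2), and those of the type I receptor by -0.02 (IFNAR1) and -0.16 (IFNAR2). Of the feedback inhibitors, SOCS1 and SOCS3 differed by -0.15 and -0.24, and SOCS2 by 0.55. IRF7, which drives the later wave of interferon genes, was the only one of 7 interferon regulatory factors counted higher, from 9.51 to 10.66 (1.16); IRF1 differed by 0.29 and IRF2 by 0.45.

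Among the gene lists, those of other ISGs (13) and RNA-directed antiviral effectors (10) held the most genes counted higher. The remaining ISG lists held fewer, at 4 and 2, than MHC class I presentation (7). Of 59 measured genes in 4 ISG lists, 29 were counted higher and 0 lower, beside 0.844% and 0.134% of all genes, and 58 had a positive difference, where 46.0% of all genes did. Their median difference was 0.99 in CAOV-3, with 0.60 for OVCAR-3, 0.08 for DOV-13 and 0.12 for SKOV-3, beside -0.02 over all genes in CAOV-3. For 42 of the 59 the CAOV-3 difference was above that of each other line, which held for 22.8% of all genes.

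The list named RNA-directed antiviral effectors had the largest median of the 4 lists (1.68), though not every member acts on RNA itself. Of its 14 measured members 10 were counted higher, beside 0.844% of all genes. ISG20, an exonuclease that degrades single-stranded RNA, went from 7.23 to 10.06, a difference of 2.83 and a 7.11-fold change. OAS1 and OAS3, which make the second messenger that activates RNase L, went from 7.57 to 10.31 (2.74) and from 8.88 to 11.23 (2.35). OAS2 differed by 1.57 (5.35 to 6.92) by the probe set used, and by 3.60 (5.07 to 8.67) by its other one. IFIT1 and IFIT3, which bind viral RNA, went from 9.27 to 11.79 (2.52) and from 8.33 to 10.45 (2.12), IFIT5 by 1.80 and RSAD2 (viperin) by 1.97. SAMHD1, which depletes deoxynucleotides, differed by 1.53. The 4 members not counted were IFIT2 (0.91), APOBEC3G (0.76), APOBEC3B (0.51) and ZC3HAV1 (0.48), all of them positive. The difference of IFIT1 was larger in OVCAR-3 than in CAOV-3, at 4.22 against 2.52, while that of ISG20 was 0.41 there. The level of IFIT1 was lower in OVCAR-3 than in CAOV-3 on both arrays, at 5.19 untreated and 9.40 treated.

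The dynamin-like and membrane restriction genes were less uniform. LAMP3, a lysosomal membrane protein, differed by 2.99 (8.15 to 11.14) and the antiviral GTPase MX1 by 1.99 (9.31 to 11.30). Only these 2 of the 13 were counted higher, beside 0.844% of all genes. The other 11 ran from 0.12 (GBP2) to 0.83 (GBP1). IFITM1, IFITM2 and IFITM3, which block viral entry at membranes, were already bright in untreated CAOV-3, at 12.07, 11.75 and 11.68, and differed by 0.75, 0.36 and 0.40. In OVCAR-3 the difference of IFITM1 was 2.99. ISG15, a ubiquitin-like modifier, was at 10.20 untreated and 12.50 treated (2.31), with its ligases HERC5 at 1.74 and HERC6 at 2.06 and its conjugating enzyme UBE2L6 at 1.20. TRIM25 and ARIH1, also in that list, differed by 0.12 and -0.11.

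Among 26 other ISGs, 13 were counted higher and all 26 were positive, beside 0.844% and 46.0% of all genes. Their median was 1.05. IFI44L led them (7.84 to 10.73, 2.89), then XAF1, a pro-apoptotic antagonist of XIAP (7.72 to 9.97, 2.25), IFI35 (7.05 to 9.30, 2.25) and RTP4 (6.63 to 8.65, 2.02). The differences of XAF1 and RTP4 were near 0 in the other lines, at most 0.20 and 0.29. That of IFI44L was 5.52 in OVCAR-3, from an untreated level of 4.22. IFI27 was just outside the count at 0.99, from a high untreated level of 11.85. The lowest members were LGALS9 (0.24) and TRIM21 (0.29).

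**Figure D2:**
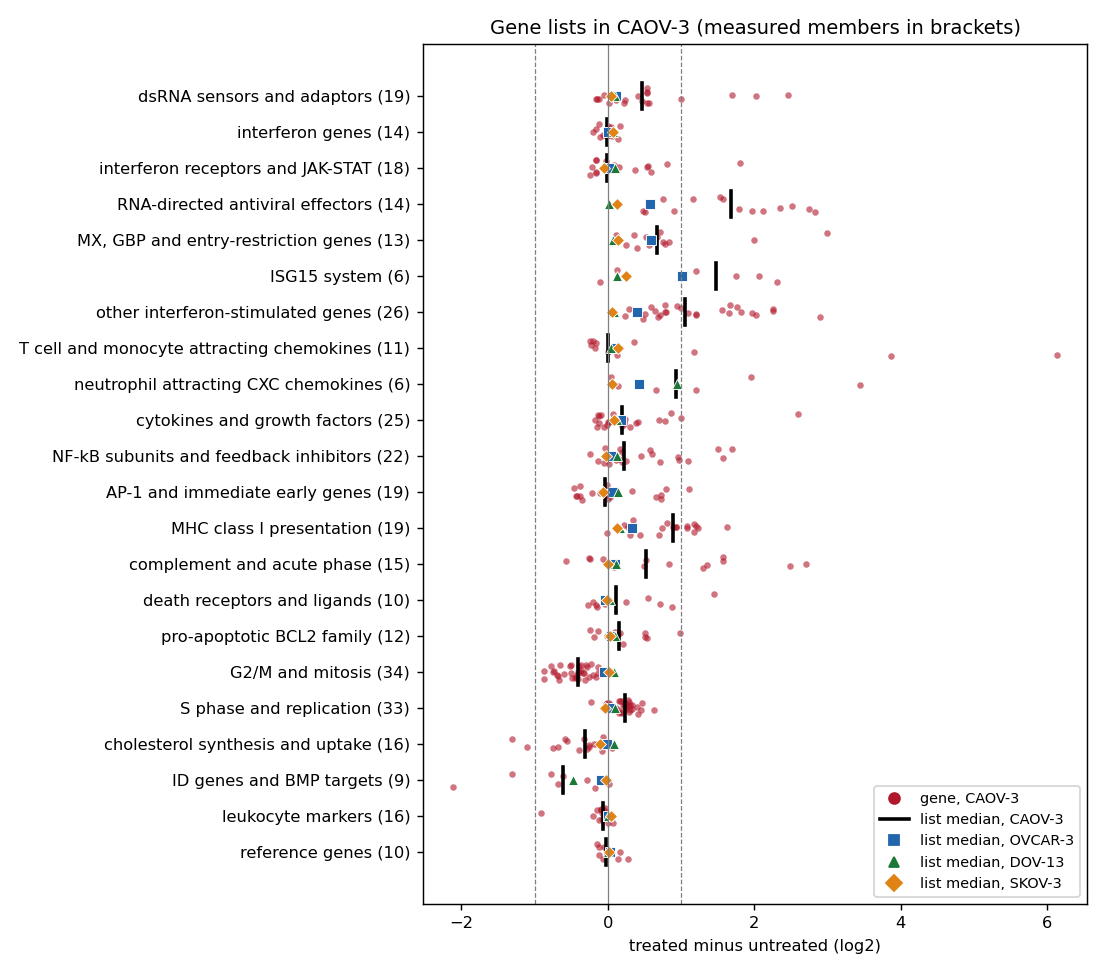
Treated minus untreated log2 difference of each measured gene in CAOV-3 (red points) for 22 of the gene lists, with the CAOV-3 list median as a black bar and the medians of OVCAR-3, DOV-13 and SKOV-3 as blue squares, green triangles and orange diamonds. Dashed lines mark -1 and 1; the CAOV-3 bar of the RNA-directed antiviral list stands at 1.68 and that of G2/M genes at -0.41.

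Chemokines were split between a few genes with very large differences and many near 0. CXCL11 is an interferon-induced ligand of CXCR3, a chemokine receptor on T cells. It was among the dimmest genes untreated, at 3.66, and reached 9.79 on the treated array. That is a difference of 6.13, and a second probe set for the gene showed 5.26. The untreated value lay within the range of the 6 arrays of the other lines (3.48 to 3.97), and no fold is given because the background signal is unknown. In OVCAR-3 the difference was 0.49 and in SKOV-3 0.16. CXCL10, another CXCR3 ligand, went from 5.09 to 8.95 (3.87) and differed by 1.36 in OVCAR-3. CXCL9, the third CXCR3 ligand, stayed dim, at 4.84 and 4.69. CCL5, which attracts T cells and monocytes, went from 4.63 to 5.81 (1.18) but stayed below the median gene and was not counted. The other 7 measured T cell and monocyte attractants, CCL2 and CCL20 among them, differed by -0.24 to 0.36. Of the 11 members 2 were counted higher, beside 0.844% of all genes, and the list's median was close to 0.

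All 6 neutrophil-attracting CXC chemokines were positive, beside 46.0% of all genes, and 3 were counted higher, beside 0.844%. Their median was 0.93 in CAOV-3 and 0.95 in DOV-13. CXCL8 (interleukin 8) went from 8.03 to 11.48, a difference of 3.45 and a 10.9-fold change, with 3.71 from a second probe set. CXCL1 went from 6.96 to 8.91 (1.95) and CXCL2 from 7.06 to 8.26 (1.21). These 3 were also higher in DOV-13, by 1.13, 0.99 and 0.91, and in OVCAR-3, by 1.28, 0.57 and 1.23. CXCL3 and CXCL5 lay below the median gene in CAOV-3 and differed by 0.13 and 0.04, whereas CXCL5 differed by 1.30 in DOV-13.

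IL6 was the only one of 25 genes in the cytokine and growth factor list counted higher, beside 0.844% of all genes. LTB, EREG and HBEGF, counted higher and described below, were outside that list. IL6 went from 8.36 to 10.96 (2.60, 6.05-fold), with differences of 0.37, 0.13 and -0.01 in OVCAR-3, DOV-13 and SKOV-3. Of the 25 genes, 20 were below the median gene on both arrays. IL7 (5.63 to 6.63), IL32 (0.86) and IL23A (0.70) were among these. LIF, a cytokine of the IL6 family, was above it and differed by 0.78 (7.31 to 8.10). TNF and IL1B differed by 0.41 and -0.10, both from low levels.

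Among NF-kB subunits and feedback inhibitors, TNFAIP3, TNIP1, NFKBIA and NFKB2 were counted higher. These were 4 of 22 measured genes, beside 0.844% of all genes. Of the 22, 17 were positive (46.0% of all genes), with a median of 0.22. TNFAIP3 (A20), a ubiquitin-editing enzyme that shuts off NF-kB, went from 6.35 to 8.04 (1.69), its partner TNIP1 from 8.37 to 9.94 (1.58), and NFKBIA, which holds NF-kB in the cytosol, from 8.52 to 9.61 (1.09). A second TNFAIP3 probe set showed 2.82. NFKB2, the precursor of the non-canonical subunit p52, went from 6.10 to 7.60 (1.5), and its partner RELB from 5.32 to 6.29 (0.97) below the median gene. NFKB1 and RELA, the canonical subunits, differed by 0.46 and 0.19.

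Adhesion and matrix genes held 3 of 16 counted higher, beside 0.844% of all genes. ICAM1, a ligand of leukocyte integrins, went from 8.85 to 10.65 (1.80), and its other 2 probe sets showed 1.84 and 1.81. TNC (tenascin C), an extracellular matrix protein of wounds and tumours, went from 4.61 to 7.0 (2.39), but a second, dim probe set showed -0.07. The urokinase gene PLAU went from 8.16 to 9.22 (1.07), and LAMB3, a laminin chain, differed by 0.88. VCAM1 and SELE stayed dim, and the 5 stromelysins, collagenases and related MMPs other than MMP9 differed by 0.18 or less. Of 19 AP-1 and immediate early genes only MYC was counted higher, from 6.92 to 8.03 (1.11). FOS, JUN, EGR1 and DUSP1 differed by -0.46, -0.44, -0.38 and -0.42, and the MAP kinase phosphatases DUSP4, DUSP5 and DUSP6 by 0.73, 0.66 and 0.79.

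Genes that present antigen on MHC class I had a median difference of 0.88 beside 0.34 (OVCAR-3), 0.17 (DOV-13) and 0.12 (SKOV-3). Of 19 measured genes 7 were counted higher, beside 0.844% of all genes, 18 were positive (46.0% of all genes) and 16 lay above each other line (22.8% of all genes). The peptide transporter genes TAP1 and TAP2 differed by 1.63 (from 8.37 untreated) and 1.23 (from 7.82), and the loading factors TAPBP and TAPBPL differed by 1.08 and 1.18. The immunoproteasome subunits PSMB9 and PSMB10 differed by 1.21 and 1.18, PSMB8 by 0.75, and the trimming peptidases ERAP1 and ERAP2 by 0.93 each. HLA-F differed by 1.08, HLA-E by 0.88, HLA-B by 0.70 and HLA-C by 0.45, from untreated levels of 10.48 to 12.47. HLA genes share much of their sequence, so probe sets for one may bind transcripts of another. The chaperones CANX and CALR, which serve all glycoproteins, differed by -0.01 and 0.22.

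MHC class II genes did not follow. Their median was -0.01, the master regulator CIITA was dim and differed by -0.08, and HLA-DRA differed by 0.44. CD74, the invariant chain, was the only one of 13 counted higher (7.40 to 8.70, 1.30), beside 0.844% of all genes. CTSS, the protease that trims CD74, went from 5.08 to 6.68 (1.60) and stayed below the median gene.

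Of 15 measured complement and acute phase genes, 5 were counted higher, beside 0.844% of all genes. CFB (factor B of the alternative pathway) went from 6.91 to 9.40 (2.49), C3, the central component, from 7.49 to 9.06 (1.58), and the C1 proteases C1S and C1R from 8.70 to 10.27 (1.57) and from 9.30 to 10.66 (1.36). CD55, which protects cells from complement, went from 10.53 to 11.84 (1.30). Other regulators differed by -0.07 (CD46), -0.26 (CD59) and -0.57 (CFI). A second CFB probe set, dim at 5.06, differed by -0.04. PTX3, a soluble pattern recognition protein, went from 3.76 to 6.47 (2.71) and missed the count because its treated value was below the median gene.

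In epithelial defence, PI3 (elafin), an elastase inhibitor, went from 6.16 to 8.56 (2.40), while it differed by 0.06 or less in the other lines. It was the only one of 11 counted higher, beside 0.844% of all genes. S100A9 and S100A8, the calprotectin subunits, differed by 1.17 and 0.86 below the median gene, and the antiprotease SLPI by 0.64. Among genes of tryptophan breakdown, WARS1, the interferon-induced tryptophanyl-tRNA synthetase, differed by 0.94 from a level of 10.50. IDO1, the enzyme that starts that path, was dim and differed by 0.26.

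Of 40 measured death receptor, caspase, pro-apoptotic and inhibitor genes, 0 were counted higher or lower, which is near the 0.844% and 0.134% of all genes. XAF1, counted higher among the ISGs, was not in these lists. The largest differences above the median gene were BNIP3, a hypoxia- and mitophagy-linked BCL2 relative (10.11 to 11.10, 0.99), the death receptor FAS (8.36 to 9.24, 0.88), the inflammatory caspase CASP1 (0.75) and the TRAIL receptor TNFRSF10B (9.33 to 10.04, 0.71). TNFRSF11B (osteoprotegerin), a decoy receptor, differed by 1.44 and was not counted because its treated value of 6.758 fell just short of the median gene at 6.759. TNFSF10 (TRAIL) itself was at 10.22 on both arrays, PMAIP1 (NOXA) differed by 0.10 and CASP8 by 0.37. Genes of the p53 response had a median of 0.02, with CDKN1A at 0.04 and the widest difference at -0.62 (ZMAT3). Of 23 stress response genes none was counted, 9 were positive and 14 negative (46.0% and 54.0% of all genes). Among the widest differences were those of PDIA4 (0.79) and HYOU1 (0.56), chaperones of the endoplasmic reticulum, and of the cystine transporter SLC7A11 (-0.70) and the serine enzyme PHGDH (-0.52).

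Genes of mitosis were lower throughout, by small amounts. All 34 measured G2/M genes had a negative difference in CAOV-3, where 54.0% of all genes did, and 32 lay below each other line, beside 32.8% of all genes. None reached the threshold, so 0 were counted. The median was -0.41, while OVCAR-3 had -0.04, DOV-13 0.09 and SKOV-3 0.02. KIF20A, a kinesin of cytokinesis, had the largest difference (9.59 to 8.71, -0.88), then DLGAP5, a spindle protein (9.15 to 8.28, -0.87), the kinase NEK2 (9.59 to 8.82, -0.78) and CENPF (9.93 to 9.18, -0.75). CCNB1 and CCNB2, the mitotic cyclins, differed by -0.65 and -0.69, and the smallest differences were those of CDK1 and MAD2L1, both -0.13.

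Genes of DNA replication were shifted the other way. Of 33 measured S phase genes 30 were positive, where 46.0% of all genes were, and the median was 0.24. Of the 33, 26 lay above each other line, beside 22.8% of all genes. CCNE1, the cyclin of S phase entry, went from 8.32 to 8.95 (0.64), CCNE2 differed by 0.47, the flap endonuclease FEN1 by 0.46, and CDC6, which loads the replicative helicase, by 0.42. None was counted. The 3 negative members were TK1 (-0.23), TYMS (-0.03) and RRM1 (-0.01). Members of a list come from the same 2 arrays, so their counts are not independent of each other.

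**Figure D3:**
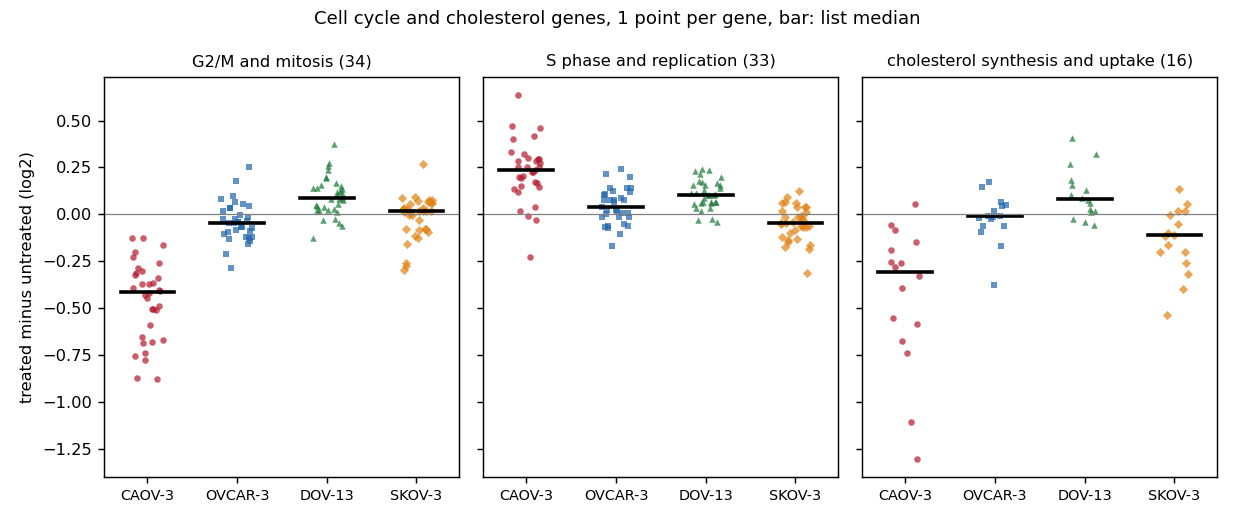
Treated minus untreated log2 difference of each measured gene of 3 lists in the 4 lines, 1 point per gene, with black bars for the list median. In CAOV-3 all 34 G2/M genes lie below 0 (median -0.41), 30 of 33 S phase genes above it (0.24) and 15 of 16 cholesterol genes below it (-0.31), while the medians of the other lines lie between -0.11 and 0.10.

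Cholesterol synthesis genes, which SREBP-2 switches on when sterols are short, were lower. Of 16 measured genes 15 had a negative difference, where 54.0% of all genes did. Of the 16, 10 lay below each other line (beside 32.8% of all genes) and 2 were counted lower, beside 0.134% of all genes. The sterol sensor gene INSIG1 went from 9.28 to 7.97 (-1.30) and the synthase HMGCS1 from 8.97 to 7.86 (-1.11). MSMO1, SQLE and DHCR7, later enzymes of the path, differed by -0.74, -0.68 and -0.58, and SREBF2 itself by -0.08. CH25H, whose product 25-hydroxycholesterol restrains SREBP, was dim and went from 4.25 to 6.49 (2.23).

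The ID genes, which encode dominant-negative partners of helix-loop-helix factors and are targets of bone morphogenetic protein (BMP) signals, held the lowest gene of all. ID4 went from 7.48 to 5.37, a difference of -2.11 or 4.32-fold lower, with differences of -0.27, 0.10 and -0.16 in OVCAR-3, DOV-13 and SKOV-3. Its other 2 probe sets were also lower, by -0.90 and -0.47. ID3 went from 11.95 to 10.64 (-1.30), ID2 from 9.34 to 8.56 (-0.78), ID1 from 12.40 to 11.71 (-0.68) and the inhibitory SMAD6 from 8.14 to 7.53 (-0.61). Of the 9 measured genes 8 were negative, beside 54.0% of all genes, and 2 were counted lower, beside 0.134%. This list was low in DOV-13 too, with a median of -0.47 against -0.61 in CAOV-3, and ID2 differed by -1.54 there.

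Of the 16 genes counted lower, 11 were in no list, where 538 of all 11963 genes were in a list. IGFBP5, an insulin-like growth factor binding protein, went from 9.75 to 7.67 (-2.08), and its other 4 probe sets differed by -0.04 to -1.35. ACO1, the iron-regulatory aconitase, went from 8.53 to 6.96 (-1.57) and AGR2, a disulphide isomerase of secretory epithelium, from 7.51 to 6.0 (-1.51). The homeobox gene DLX2 went from 8.07 to 6.56 (-1.51), but a second, dim probe set showed -0.07. SNAI2 (Slug), a repressor of epithelial genes, went from 7.42 to 6.32 (-1.10), and FBN1 (fibrillin) from 6.77 to 5.60 (-1.17). A second, dim probe set of FBN1 showed -0.42. SNAI2 was the only one of 18 mesenchymal markers counted, where 0.134% of all genes were counted lower. The remaining 6 were SLC12A8 (-1.24), RHOBTB3 (-1.22), the placental phosphatase ALPP (-1.07), RHOQ (-1.06), NLGN1 (-1.05) and HEG1 (-1.04). In 13 of the 16 genes counted lower (81.2%), all 3 other lines were within 0.5 of 0, beside 96.8% of all genes. Over the 16 genes, 9 had 19 further probe sets, of which 19 had the same sign and 6 also reached -1. Just outside the threshold lay GULP1 (-0.98) and CD24 (-0.97).

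Of the 101 genes counted higher, 38 were in no list, where 538 of all 11963 genes were in a list. KLK10, a secreted kallikrein protease, went from 6.50 to 9.08 (2.57), ADAM8, a membrane metalloprotease, from 6.77 to 9.06 (2.29), LTB (lymphotoxin beta), which activates non-canonical NF-kB, from 5.80 to 8.04 (2.24), and OLR1, a scavenger receptor for oxidised lipoprotein, from 9.90 to 12.02 (2.12). Second, dim probe sets of KLK10 and ADAM8 showed 0.51 and 0.62. Others from this set, chosen after their values were seen, include growth and prostaglandin genes: the EGF receptor ligands EREG (6.41 to 8.10, 1.69) and HBEGF (1.18) and the cyclooxygenase PTGS2 (5.09 to 6.76, 1.67), whose treated value only just reached the median gene. The proteoglycan SDC4, the integrin ITGA2 and the polyamine enzyme ODC1 differed by 1.60, 1.57 and 1.44, and the glycolytic HK2 and the hypoxia-linked NDRG1 by 1.16 and 1.24. NRP1, a co-receptor for VEGF and semaphorins, went from 5.52 to 7.28 (1.77), but a second probe set showed 0.50 and another, dim one -0.31. Over the 101 genes, 37 had 50 further probe sets, of which 46 had the same sign and 25 also reached 1. The 4 of opposite sign belonged to CFB, NRP1, TNC and TRIM14. At the threshold SERPINB1 and EHF (both 1.04) lay inside and HLA-J (0.998) and BNIP3 outside.

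**Figure D4:**
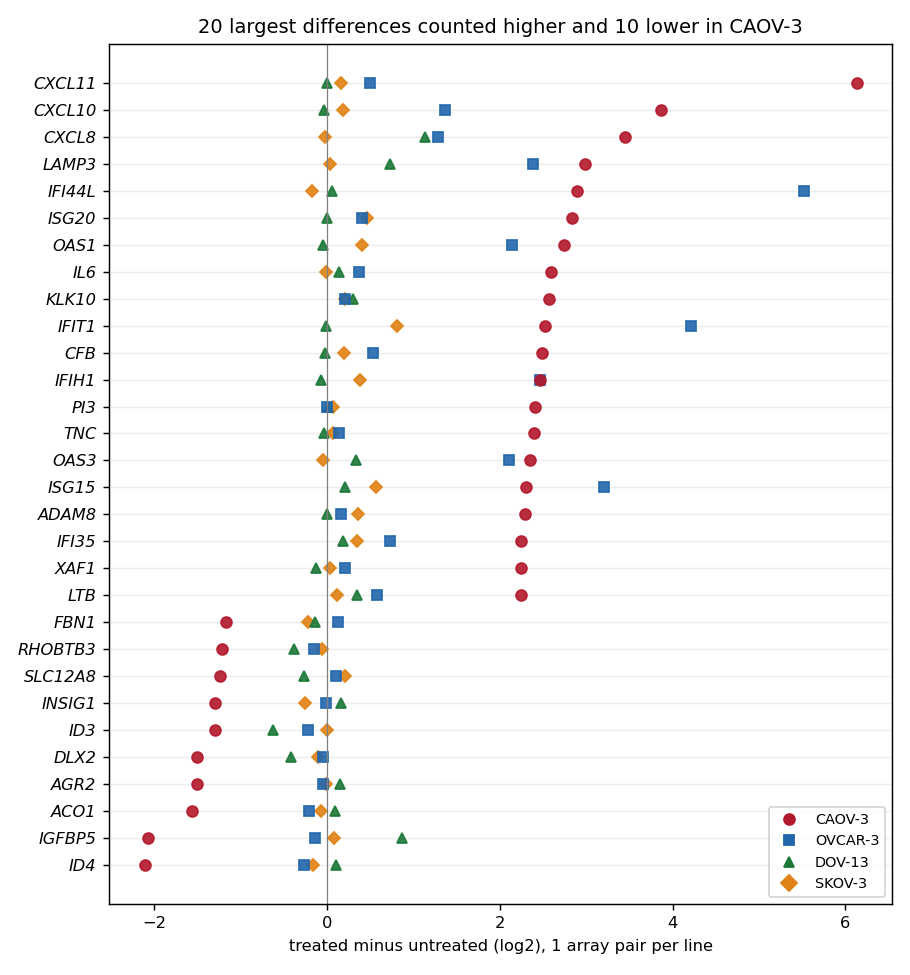
Treated minus untreated log2 difference in each of the 4 lines, 1 array pair per line, for the 20 largest differences counted higher and the 10 largest counted lower in CAOV-3. CAOV-3 (red circles) runs from 6.13 for CXCL11 to 2.24 for LTB and from -1.17 for FBN1 to -2.11 for ID4. Among the higher genes OVCAR-3 (blue squares) exceeds it for IFI44L, IFIT1 and ISG15, and barely for IFIH1 (2.47 against 2.46).

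CAOV-3 and OVCAR-3 shared more counted genes than CAOV-3 shared with DOV-13 or SKOV-3, where only 2 and 1 genes were counted higher. Of the 26 genes counted higher in OVCAR-3, 22 were also among the 101 of CAOV-3, beside 0.844% of all genes. The 22 are 84.6% of the OVCAR-3 genes and 21.8% of those of CAOV-3. They were CXCL2, CXCL8 and 20 interferon-stimulated or sensor genes, among them IFIT1, MX1, OAS1 and IFIH1. EIF2AK2, IFI27, IFITM1 and IRF9 were counted in OVCAR-3 alone. Of the 101 genes, 52 (51.5%) had differences within 0.5 of 0 in all 3 other lines, where 96.8% of all genes did. The 101 were picked for a large difference in CAOV-3, so most would lie above each other line by that choice. Of them 89 did, which is no separate result. DOV-13 shared CXCL8 and SKOV-3 shared IFI44 with the CAOV-3 count.

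Whether a gene's difference in CAOV-3 stood apart from those of the other 3 lines was tested with limma on the 4 differences per gene. In this fit the spread comes from the 3 other lines, pooled over genes, and includes how their responses to pI:pC vary between lines. The single CAOV-3 difference is assumed to vary as theirs do. With Benjamini-Hochberg adjustment over all 11963 genes, 37 (0.309%) stood higher in CAOV-3 and 4 (0.0334%) lower, and 1119 genes had an unadjusted p under 0.05. Of the 101 genes counted higher 30 passed, and of the 16 counted lower 3 did, while the remaining 7 higher genes and RCAN2 had been too dim to be counted. The CAOV-3 spread over all genes was wider than in the other lines, as given above. When each line's differences were scaled to its own spread, an alternative chosen after seeing the data, 7 higher genes and 0 lower ones passed; the genes were CXCL11, CH25H, KLK10, NRP1, OLR1, PI3 and TNC. Among genes at or above the median level 9 passed. The 41 became 16 without SKOV-3, 67 without DOV-13, 1 (CXCL11) without the cell line as a block and 235 with a trended, robust prior.

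Of the 37 genes that stood higher in CAOV-3, 5 were in an ISG list and 21 in no list. Over all 11963 genes, 59 were in an ISG list and 538 in any list, and the lists were chosen with earlier results known. The adjusted p-values below rest on the assumption that CAOV-3 varies as the other lines do, and with scaled differences those of CXCL11, PI3, KLK10, TNC and CH25H stayed under the threshold while those of IL6, PTX3, CFB, ISG20 and XAF1 lay between 0.0509 and 0.12. CXCL11 stood 5.92 ± 0.21 (SE) above the mean of the other lines (limma adjusted p = 0.000751), IL6 2.43 ± 0.18 (0.00993), PI3 2.38 ± 0.13 (0.00555), KLK10 2.34 ± 0.13 (0.00555) and TNC 2.34 ± 0.14 (0.00589). PTX3 stood 2.61 ± 0.22 above (0.0132), CFB 2.26 ± 0.22 (0.0206) and CH25H 2.22 ± 0.14 (0.00639). ISG20 at 2.54 ± 0.21 (0.0132) and XAF1 at 2.21 ± 0.17 (0.0108) were 2 of the 5 ISGs that passed, the others being RTP4, IFI35 and SAMHD1. Several ISGs that were also high in OVCAR-3 did not pass, and their standard errors were large: the excess of CAOV-3 was 0.85 ± 1.46 for IFIT1 (adjusted p = 0.906), 0.54 ± 1.40 for MX1 (0.943) and 0.98 ± 1.07 for ISG15 (0.848). CXCL10 (3.36 ± 0.50, 0.0815) and CXCL8 (2.65 ± 0.48, 0.128) also missed the threshold, which does not show that the lines responded alike in them.

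On the lower side ID4 stood below the other lines by a difference of -2.0 ± 0.18 (limma adjusted p = 0.0147). RCAN2, a calcineurin regulator, stood at -1.75 ± 0.14 (0.0127), AGR2 at -1.54 ± 0.15 (0.0178) and ACO1 at -1.5 ± 0.16 (0.0256). With scaled differences the adjusted p of these 4 genes lay between 0.0509 and 0.132. RCAN2 went from 6.36 to 4.74 and was below the median gene on both arrays. IGFBP5, whose difference was as large as that of ID4, did not pass (-2.35 ± 0.37, 0.093) and differed by 0.86 in DOV-13. No gene of the G2/M, S phase or cholesterol lists passed in this test. That is near the share of all genes that passed, 0.309% higher and 0.0334% lower.

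**Figure D5:**
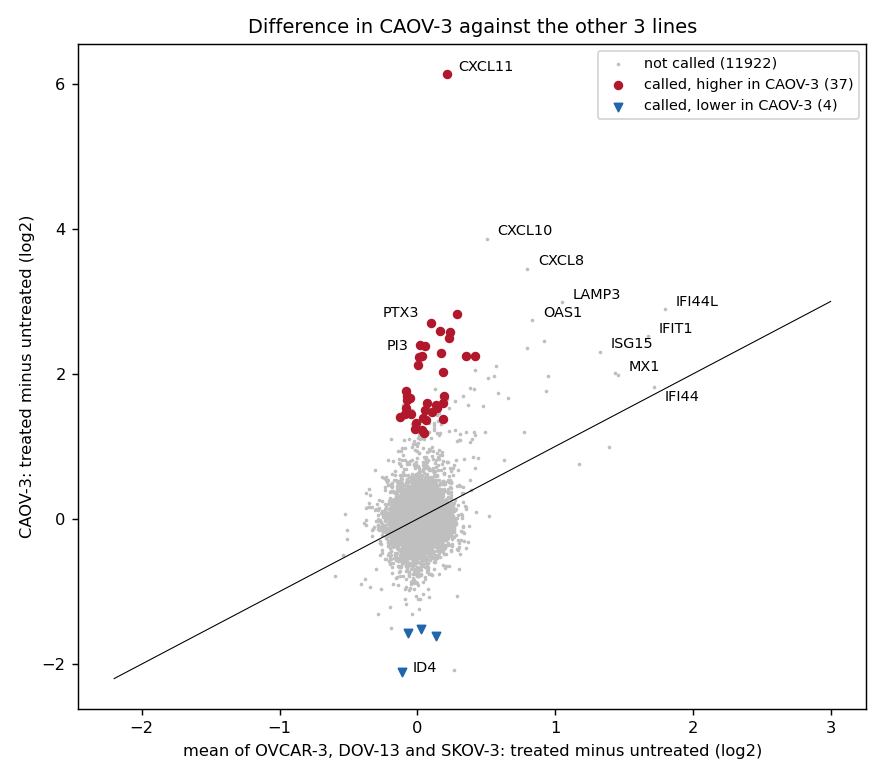
Treated minus untreated log2 difference in CAOV-3 (vertical axis) against the mean difference of OVCAR-3, DOV-13 and SKOV-3 (horizontal axis) for 11963 genes, with the line of equal values. Red circles are the 37 genes and blue triangles the 4 genes that passed the limma test; CXCL11 lies at 6.13, and ISGs such as IFI44L and IFIT1, high in OVCAR-3 too, lie to the right and did not pass.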

How the data were processed

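RNA of 4 ovarian cancer lines with and without pI:pC was hybridised to Affymetrix arrays. The authors deposited log2 expression values of 22277 probe sets, and the submitters' processing notes name RMA. Its version, and if it was run on the 8 arrays jointly, is not stated here. The supplied platform annotation gave the names: 19064 carry 1 gene, 1043 several and 2170 none here, 62 of all being array controls. Each of the 11963 genes was read from its brightest probe set by the mean of all 8 arrays, and 4310 genes have more than 1. The members and the 36 gene lists (628 genes, 538 measured) were chosen with earlier results of these data known. CAOV-3 was tested against the other 3 lines with limma 3.58.1 under R 4.3.3, fitting the 4 within-line differences with lmFit and eBayes, two-sided, with 2 residual and 4.32 prior degrees of freedom, Benjamini-Hochberg adjustment and a threshold of 0.05. The script was tested on simulated data. Motifs were chosen after values were seen. Genes were named by rule: the 20 largest counted higher, all counted lower, up to 4 members per list with the largest differences, a set by name and up to 10 that passed each way. Further genes, mainly list members that help describe a pathway, were chosen after their values were seen. Alternatives were other probe set summaries, normalizations, level filters, thresholds and fits, and each other line left out.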

Additional observations from a re-analysis of the deposited data

Results flagged for a closer look

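In 41 genes the CAOV-3 difference itself differed from that of the other 3 lines by limma at an adjusted p under 0.05. Each value below is the CAOV-3 difference minus the mean of the other lines on the log2 scale. The secreted and signalling genes were CXCL11 (5.92), PTX3 (2.61), IL6 (2.43), CFB (2.26), LTB (1.89), EREG (1.77), CCL5 (1.14), C1R (1.3) and IGFBP3 (1.33). Proteases, inhibitors and matrix or surface genes were PI3 (2.38), KLK10 (2.34), TNC (2.34), OLR1 (2.12), ADAM8 (2.11), NRP1 (1.85), STEAP1 (1.72), SDC4 (1.53), TNFRSF11B (1.53), ITGA2 (1.43), CTSS (1.42), KLRC3 (1.2) and IL7R (1.19). Interferon-stimulated genes were ISG20 (2.54), XAF1 (2.21), RTP4 (1.84), IFI35 (1.83) and SAMHD1 (1.39). The rest of the higher genes were CH25H (2.22), PTGS2 (1.72), ARL14 (1.61), RGS2 (1.53), TNFAIP3 (1.5), ODC1 (1.49), CITED2 (1.45), HCP5 (1.38), STYK1 (1.35) and NDRG1 (1.26). ID4 (-2.0), RCAN2 (-1.75), AGR2 (-1.54) and ACO1 (-1.5) stood lower. PTX3, CH25H, CTSS, ARL14, TNFRSF11B, KLRC3, CCL5 and RCAN2 were below the median gene on both CAOV-3 arrays. CFB, NRP1 and TNC each have a further probe set of opposite sign. The single CAOV-3 pair gives no error of its own, and its dose and exposure time may differ from those of the other lines, which was not tested. Differences spread more widely over all genes in CAOV-3 (SD 0.287) than in the other lines (0.159 to 0.204). Most of these genes did not pass once differences were scaled to the spread of each line.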

How the results depend on the processing

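Scaling and probe set choices left the CAOV-3 count of higher genes between 100 and 105, with 91 to 100 of the 101 genes shared. A size threshold of 0.5 gave 274 higher and 183 lower genes, and one of 1.5 gave 55 and 5. The higher count was 74 when both values had to reach the median gene, 117 with no level filter and 146 with each probe set on its own. The lower count was 10 with the mean of all probe sets, 9 when both values had to reach the median gene and 29 with each probe set on its own. Of the 117 counted genes 101 to 116 kept their count under the 5 probe set and normalization alternatives, and 0 differences changed sign. List medians moved beyond the spread of the other lines in 9 of 180 values, with 0 reversed. Calls against the other lines varied most: 41 became 235 with eBayes trend and robust, 9 among genes at or above the median level (12 of the 41 were tested), 67 without DOV-13 and 51 without OVCAR-3. They became 16 without SKOV-3, 1 (CXCL11) without the cell line as a block, and 7 with differences scaled to the spread of each line. CXCL11 passed in 8 of the 9 alternatives and was too dim on average for the level filter. The cell line pairs the arrays, and 1 array per condition limits every value. RMA understates differences of dim genes, and the background signal is not given.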
